A study of Mus musculus with 6 samples.

Results

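The unfolded protein response (UPR) is the signalling system by which a cell adjusts to misfolded protein in the endoplasmic reticulum (ER). Its 3 sensors are membrane proteins. ATF6 is cut in the Golgi to release a transcription factor, IRE1 (gene Ern1) splices Xbp1 mRNA, and PERK (gene Eif2ak3) phosphorylates eIF2α, which favours translation of Atf4 and then expression of Ddit3 (CHOP). Beta cells make large amounts of proinsulin in the ER, and saturated fatty acids are known to set off ER stress in them.

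The members were 10 genes given by name: the sensors Atf6, Ern1 and Eif2ak3, the transcription factors Xbp1, Atf4 and Ddit3, the chaperone Hspa5 with its ER partner Sdf2l1, and the degradation factors Syvn1 and Selenos. Each was found by its Ensembl identifier among the 53379 genes of every count table, and all 10 passed the filter on low counts, as did 16929 genes in all. No measured value entered the choice of rule, although results of these data were known when the genes were proposed.

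The 6 libraries came from Min6, a mouse insulinoma line, at passage 31. Both groups carried the same exposure, 25 mM glucose with 500 µM palmitic acid for 30 h, so no unstressed cells stand beside them. In the hnRNPK IP group, 3 libraries were made from RNA recovered on beads with an antibody against hnRNPK, an RNA-binding protein whose KH domains prefer C-rich single strands. The Total RNA group holds 3 libraries of RNA from the input lysate. No control antibody was analysed here, so RNA held by beads or antibody is counted with RNA held by hnRNPK. A single cell line stands behind all libraries, and no label says that replicates were grown apart. The p-values therefore speak only of the spread among these libraries, which may be technical.

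Library totals were 38764925 to 46222181 counts in the IP and 46185284 to 52735957 in total RNA. The IP libraries spread more widely around their mean (biological coefficient of variation 43.1%) than those of total RNA (12.2%). All 10 beta cell markers checked were measured, with a summed level of 6376 to 7510 CPM (counts scaled to a common library size with trimmed mean, or TMM, factors) in the IP and 20750 to 30070 in total RNA. Ins2 and Iapp made up most of the sum in total RNA, at means of 10471 and 14161 CPM, against 1953 and 1461 in the IP. By the test described below, 7 of the 10 were enriched and 3 depleted, where 28.9% and 33.6% of all tested genes were. Of 12 markers of other cells, Cpa1 and Prss2 (exocrine) had 0 reads in every library. The sum of those 12 was 128 to 176 CPM in the IP and 135 to 169 in total RNA, nearly all of it Gcg, the glucagon gene, at a mean of 145 and 151 CPM. The part of these markers in the results was not tested.

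The UPR messages divided. The sensors Atf6 and Ern1, the IRE1 substrate Xbp1 and the ubiquitin ligase gene Syvn1 were enriched in the IP by 1.67-fold to 4.89-fold. The sensor Eif2ak3 with Atf4 and Ddit3 downstream of it, the chaperone pair Hspa5 and Sdf2l1, and Selenos were depleted by 1.70-fold to 9.43-fold. All 10 members passed the test (edgeR quasi-likelihood, with p adjusted by Benjamini-Hochberg over all tested genes and under 0.05), 4 enriched and 6 depleted, where 62.4% of all tested genes passed, 28.9% enriched and 33.6% depleted. In all 10 members the IP and total RNA libraries did not overlap, as in 71.4% of all tested genes, 32.2% with the IP higher and 39.3% with the IP lower. The median log2 fold change, IP minus total RNA, was −1.06 over the members and −0.07 over all tested genes, and −0.64 and 0.05 under a length offset, which removes the dependence of each library on exonic length.

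Enrichment is relative, since the labels name no spike-in to set the groups on a common scale. Under TMM factors 4892 genes were enriched and 5680 depleted, and with library totals alone 3447 and 7278, as the median of all tested genes shifted by −0.43 on the log2 scale. Every member kept its direction under both scalings and under the length offset.

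**Figure D1:**
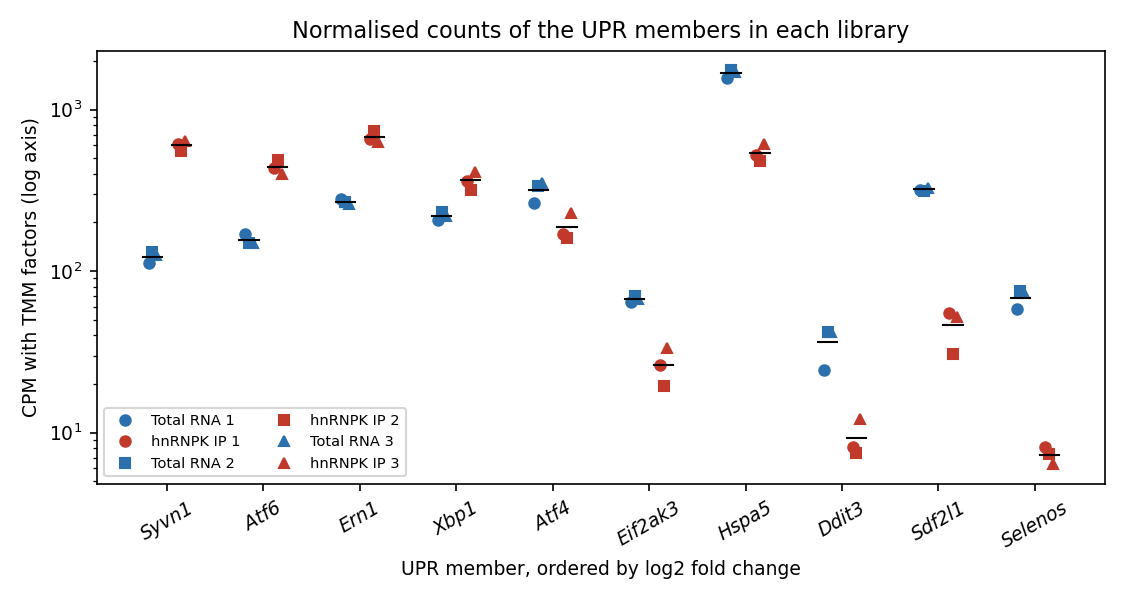
Normalised counts (CPM with TMM factors, log axis) of the 10 UPR members in each of the 6 libraries, blue for total RNA and red for the hnRNPK IP, with a black line at each group mean. Red points lie above blue for Syvn1, Atf6, Ern1 and Xbp1 and below blue for the other 6 genes, with no overlap in any gene.

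Sequences are shown first for RNA stretches that bear on an hnRNPK experiment. Each is the 30 bases of a member's 3′ UTR with the most bases in runs of at least 3 C. Where windows tied, the first was taken. Only 3′ UTRs of at least 100 bases are shown, which leaves out Atf4 (81 bases). They were read from GENCODE M21 transcripts (GRCm38), 5′ to 3′ along the mRNA, with runs of at least 3 C in capitals. The first 4 belong to enriched messages and the last 5 to depleted ones.
Syvn1, chr19:6053261-6053290, plus strand: CCCtgCCCtgCCCCtCCCCagctctttCCC
Ern1, chr11:106395478-106395507, minus strand: tgctCCCCtcctctCCCCttCCCCCCCCCC
Atf6, chr1:170706116-170706145, minus strand: gtgCCCCCatcaccacaacaCCCCtCCCCC
Xbp1, chr11:5525564-5525593, plus strand: aaacttctgaCCCtcttgaCCCCacctCCC
Eif2ak3, chr6:70904289-70904318, plus strand: CCCtcagctgCCCtcgaaggtggcagagca
Ddit3, chr10:127296105-127296134, plus strand: cctcctgtctgtctctccggaagtgtaCCC
Hspa5, chr2:34776625-34776654, plus strand: caatgtagagatgtttgctgtttactCCCC
Sdf2l1, chr16:17130170-17130199, minus strand: ttaaaggtgtacaccaccacaactggCCCC
Selenos, chr7:66088871-66088900, plus strand: tctgacattagcaaggtgaacctttaaCCC

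In these windows 17 of 30 bases lay in C runs in Syvn1, 18 in Ern1, 14 in Atf6 and 10 in Xbp1. The depleted messages had 6 in Eif2ak3, 4 in Hspa5, 4 in Sdf2l1, 3 in Ddit3 and 3 in Selenos. A longer 3′ UTR offers more windows, and that of Atf6 had 5205 bases against 369 in Sdf2l1. Counted per kb of 3′ UTR, runs of 3 or more C came to 26.5 in Syvn1, 17.2 in Xbp1, 13.1 in Ern1 and 12.1 in Atf6. They came to 10.2 in Ddit3, 9.40 in Eif2ak3, 8.13 in Sdf2l1, 7.67 in Hspa5 and 5.43 in Selenos. The median over 12577 tested coding genes was 11.1, so the 4 enriched members lay above it and the 5 depleted ones below it. Among those tested genes the median was 13.25 for enriched and 9.39 for depleted ones, so Ern1 and Atf6 lay below that of enriched genes. Ddit3 and Eif2ak3 lay above that of depleted genes. TCCC per kb of 3′ UTR split the same way. Xbp1 (10.1), Syvn1 (7.58), Ern1 (6.94) and Atf6 (5.38) lay above the median of 4.39. Eif2ak3 (3.13), Hspa5 (2.09) and Ddit3, Sdf2l1 and Selenos (0 each) lay below it. The density of CCCC and the percentage of C split less cleanly. For CCCC per kb, Syvn1 (13.3), Xbp1 (10.1) and Ern1 (6.17) lay above the median of 3.35. Atf6 (2.69) lay below it with the 5 depleted members, next to Sdf2l1 (2.71). By percentage of C the 4 enriched members lay above the median of 22.0, but so did Ddit3 (27.4), which was depleted. Runs of C in the coding sequences did not separate the members either. Runs per kb of coding sequence came to 17.8 in Ddit3 and 17.1 in Atf4, both depleted, against 16.2 in Xbp1 and 13.2 in Atf6, both enriched, with a median of 13.5 over tested coding genes. The 30 coding bases with the most in such runs had 11 in Eif2ak3 and 10 in Atf4, against 9 in Xbp1 and 7 in Atf6. No binding site was measured here, and a C-rich stretch is a description of the letters only.

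Among the sensors, Atf6 and Ern1 were enriched and Eif2ak3 was depleted. Atf6 (ENSMUSG00000026663.6, chromosome 1, 170704674 to 170867771, minus strand, GRCm38) had 434, 484 and 398 CPM in IP libraries 1, 2 and 3, and 168, 150 and 149 CPM in total RNA libraries 1, 2 and 3. All 3 IP libraries lay far above all 3 of total RNA. On the log2 scale Atf6 was 1.49 ± 0.10 (SE; edgeR, adjusted p = 9.42e-06) higher in the IP, which is 2.82-fold.

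Ern1 (ENSMUSG00000020715.9, chromosome 11, 106394650 to 106487852, minus strand) had 659, 741 and 633 CPM in the IP and 278, 266 and 260 in total RNA. As for Atf6, IP library 2 was the highest and IP library 3 the lowest of the IP group. Ern1 had a log2 fold change of 1.34 ± 0.09 (edgeR, adjusted p = 7.72e-06), 2.53-fold higher. Eif2ak3 (ENSMUSG00000031668.14, chromosome 6, 70844515 to 70905245, plus strand) had 26.1, 19.4 and 33.3 CPM in the IP and 64.1, 69.7 and 67.4 in total RNA. Here the order of the IP libraries was turned round, with library 3 highest and library 2 lowest, and the group stayed below total RNA. For Eif2ak3 the log2 fold change was −1.35 ± 0.19 (edgeR, adjusted p = 0.000359), 2.55-fold lower. The annotation places another gene, Gm43292, on the opposite strand over 8.05% of the exonic bases of Eif2ak3, and without a known strand setting their reads cannot be told apart.

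The transcription factors below the sensors also divided. Xbp1 (ENSMUSG00000020484.18, chromosome 11, 5520659 to 5525893, plus strand) encodes the factor that IRE1 activates. It had 363, 318 and 413 CPM in the IP and 207, 231 and 218 in total RNA. The groups did not overlap, but the gap was the narrowest among the enriched members. The log2 fold change was 0.74 ± 0.11 (edgeR, adjusted p = 0.000588), 1.67-fold higher. Library totals alone gave 0.30 (edgeR, adjusted p = 0.0479, range over all 16 alternatives 9.89e-09 to 0.0479), and the length offset 1.05.

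The unconventional intron that IRE1 cuts from Xbp1 mRNA is shown because gene counts do not tell its spliced form from its unspliced form. A search of the coding sequence for a pair of CNGCAG loops with cut points 26 bases apart matched at 2 places. The match in exon 4 of 5, at chr11:5524279-5524304, is the stretch known as the IRE1 intron, printed here with the intron in capitals and 3 bases on each side.
Xbp1 intron: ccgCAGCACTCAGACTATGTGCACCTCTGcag
Its 26 bases are 0.8% of the exonic length of the gene, and removing them shifts the reading frame, since 26 is no multiple of 3. The level above is therefore that of both forms together. The 3′ UTR of Xbp1 used above was that of the unspliced form, and where it begins in the spliced form was not worked out.

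Atf4 (ENSMUSG00000042406.8, chromosome 15, 80255184 to 80257541, plus strand), the main effector of PERK, had 169, 161 and 229 CPM in the IP and 262, 335 and 352 in total RNA. The highest IP library (3) and the lowest total RNA library (1) came close without overlapping. The log2 fold change was −0.76 ± 0.17 (edgeR, adjusted p = 0.00428), 1.70-fold lower. It was the member whose call depended on length, at −0.18 under the length offset (edgeR, adjusted p = 0.172, range over all 16 alternatives 0.000214 to 0.172). Library totals alone gave −1.19.

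Ddit3 (ENSMUSG00000025408.15, chromosome 10, 127290774 to 127296288, plus strand) encodes CHOP, which promotes cell death under lasting ER stress. It had 8.09, 7.43 and 12.1 CPM in the IP and 24.4, 42.2 and 42.1 in total RNA. Total RNA library 1 stood well below the other two, yet above every IP library. Ddit3 had a log2 fold change of −1.97 ± 0.28 (edgeR, adjusted p = 0.000385), 3.93-fold lower, and −1.10 under the length offset. Its exons share 3.97% of their bases with Mars on the opposite strand.

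Hspa5 and Sdf2l1, both of the ER lumen, were depleted. Hspa5 (ENSMUSG00000026864.13, chromosome 2, 34771970 to 34777547, plus strand) encodes BiP, the Hsp70 chaperone that holds the sensors inactive when folding is in order. It had 527, 477 and 612 CPM in the IP and 1576, 1746 and 1705 in total RNA, the highest counts of any member in total RNA. Hspa5 had a log2 fold change of −1.64 ± 0.11 (edgeR, adjusted p = 7.36e-06), 3.11-fold lower, and −1.54 under the length offset.

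Sdf2l1 (ENSMUSG00000022769.9, chromosome 16, 17130138 to 17132383, minus strand) encodes a partner of BiP and its DnaJ cofactors. It had 55.4, 30.7 and 52.2 CPM in the IP and 319, 314 and 329 in total RNA. The total RNA libraries lay within a few percent of each other, while IP library 2 stood below the other two. For Sdf2l1 the log2 fold change was −2.80 ± 0.21 (edgeR, adjusted p = 1.54e-05), 6.95-fold lower, and −1.74 under the length offset.

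The degradation factors lay at the opposite ends of the members. Syvn1 (ENSMUSG00000024807.18, chromosome 19, 6046576 to 6053712, plus strand) encodes HRD1, the ubiquitin ligase that marks misfolded ER proteins for the proteasome. It had 611, 552 and 640 CPM in the IP and 113, 131 and 125 in total RNA. The log2 fold change of 2.29 ± 0.10 (edgeR, adjusted p = 1.62e-06), 4.89-fold higher, was the highest of the members and higher than that of 96.2% of tested genes. Under the length offset it was 2.27. Mrpl49 on the opposite strand shares 1.87% of its exonic bases.

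Selenos (ENSMUSG00000075701.9, chromosome 7, 66079649 to 66089405, plus strand) encodes a selenoprotein of the ER membrane that joins the ligase complex to the ATPase p97. It had 8.09, 7.37 and 6.39 CPM in the IP and 58.2, 75.0 and 72.7 in total RNA. Unlike most depleted members it was lowest in IP library 3. The log2 fold change was −3.24 ± 0.15 (edgeR, adjusted p = 2.30e-06), 9.43-fold lower, the lowest of the members and in the lowest 4.80% of tested genes. Under the length offset it was −2.24.

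**Figure D2:**
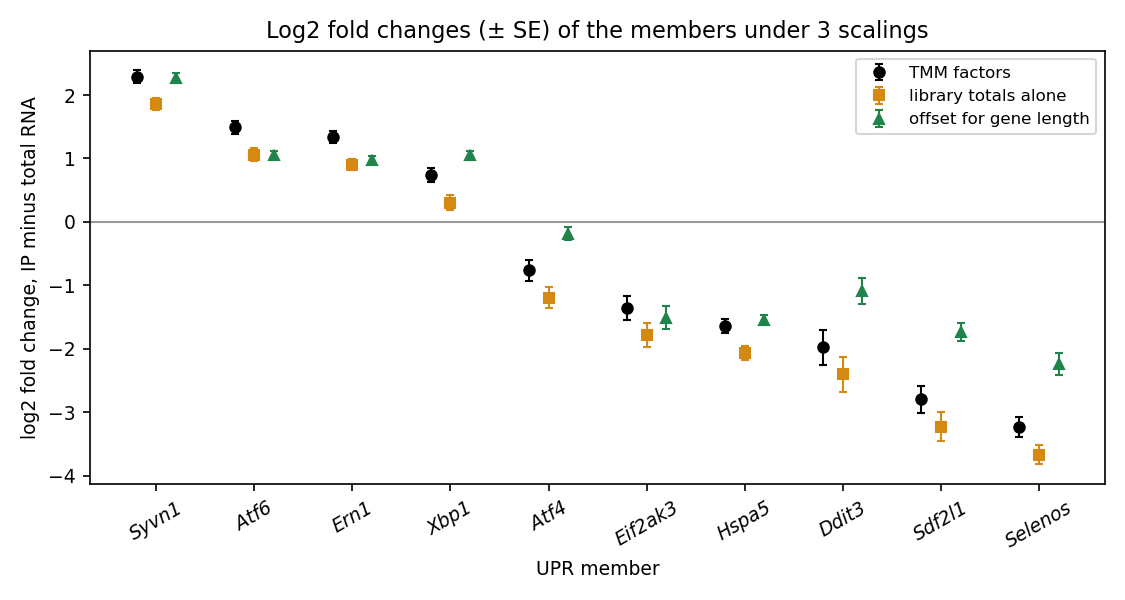
Log2 fold changes of the 10 members, IP minus total RNA, with standard errors from edgeR, under TMM factors (black circles), library totals alone (orange squares) and the length offset (green triangles). All symbols of Syvn1, Atf6, Ern1 and Xbp1 lie above 0 and all others below it, and the green triangle of Atf4 at −0.18 lies nearest to 0.

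The spread among IP libraries was shared by several members. IP library 3 had the highest CPM of the IP group for 6 of the 10 genes and the lowest for 3, and IP library 2 the lowest for 7. IP library 3 also held the most detected genes of the IP group, 21306 against 18485 and 17471. Without IP library 3 the log2 fold change of Eif2ak3 was −1.62, that of Atf4 −1.0 and that of Ddit3 −2.28. The direction and call of each member held without any single library.

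Within a library, the ratio of a pair of genes needs no scaling between groups, so 10 pairs of partners, paralogs or successive steps were compared. With 3 libraries against 3, the exact permutation test (two-sided) cannot go below p = 0.1, so no pair could pass the threshold. The ratio of Atf6 to Eif2ak3 reads was 16.6, 25.0 and 12 in the IP and 2.63, 2.15 and 2.20 in total RNA. That of Ern1 to Eif2ak3 was 25.3, 38.3 and 19.0 in the IP and 4.34, 3.82 and 3.85 in total RNA. Against Eif2ak3, both other sensors were thus over-represented in the IP, 7.36-fold and 6.61-fold. Atf6 and Ern1 kept almost the same ratio to each other, 0.658, 0.653 and 0.629 in the IP and 0.606, 0.563 and 0.572 in total RNA, a difference of 1.11-fold.

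Syvn1 and Sel1l encode the ligase and the adaptor of 1 complex. Their ratio was 3.10, 2.46 and 3.36 in the IP and 0.668, 0.846 and 0.850 in total RNA, 3.77-fold higher in the IP. Sel1l itself had a log2 fold change of 0.38 ± 0.10 (edgeR, adjusted p = 0.0110), but its sign turned under library totals alone (−0.059) and under the length offset (−0.0089). Syvn1 to Selenos was the widest pair, at 75.5, 74.9 and 100.2 in the IP and 1.94, 1.75 and 1.72 in total RNA. The paralog of Atf6, Atf6b, was not called (0.02 ± 0.13) but passed in opposite directions under other scalings, at −0.41 under library totals alone (edgeR, adjusted p = 0.0277) and 0.46 under the length offset (edgeR, adjusted p = 0.00125, range over all 16 alternatives 0.00125 to 0.969). The ratio of Atf6 to it was 2.78-fold higher in the IP.

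Hspa5 and Hsp90b1, the ER forms of Hsp70 and Hsp90, kept similar ratios, 1.33, 1.25 and 1.49 in the IP and 1.36, 1.64 and 1.58 in total RNA, which overlapped (exact permutation test, p = 0.2). The ratio of Hspa5 to Sdf2l1 was 2.30-fold higher in the IP and that of Atf4 to Ddit3 2.29-fold higher, and in both pairs the shorter message was the more depleted. The ratio of Xbp1 to Atf6 was 1.70-fold lower in the IP. The other 9 pairs, all but Hspa5 with Hsp90b1, had no overlap between groups and the smallest p this design allows (exact permutation test, p = 0.1, adjusted p = 0.111). These ratios use the same counts as the fold changes above, and 71.4% of single tested genes had no overlap either. The share over other gene pairs was not worked out.

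**Figure D3:**
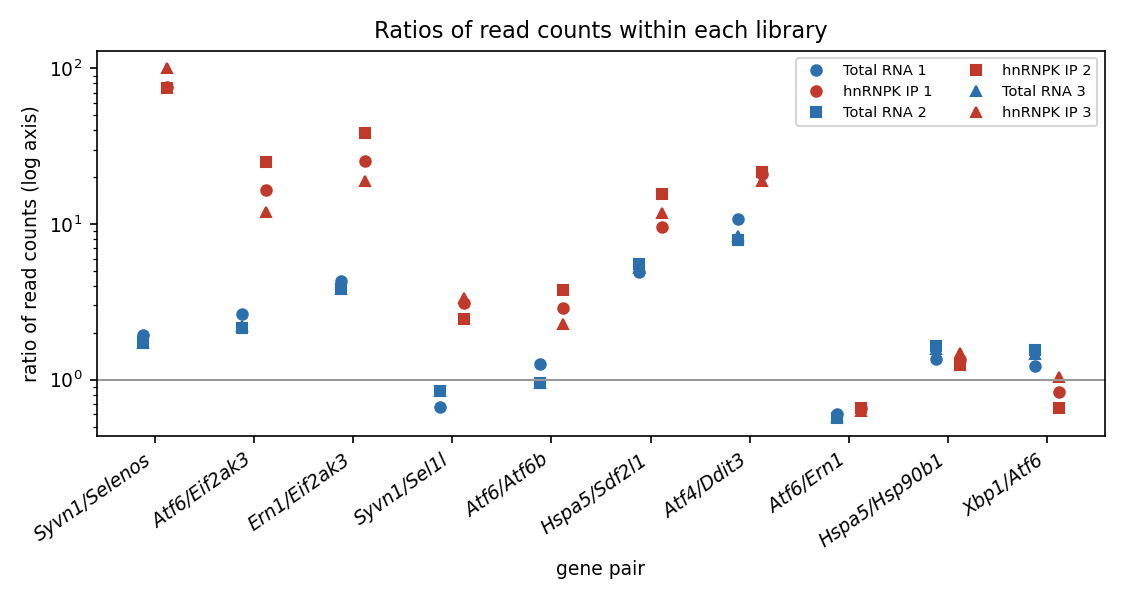
Ratios of read counts of 10 gene pairs within each library (log axis), blue for total RNA and red for the hnRNPK IP, with the grey line at a ratio of 1. Syvn1 to Selenos differs most between groups, and the Hspa5 to Hsp90b1 points overlap.

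Levels of different genes were compared per length, as CPM per kb of exonic sequence. In total RNA the order ran from Hspa5 (396 ± 20.9, SD, n = 3) and Sdf2l1 (289 ± 6.75) over Atf4 (134 ± 20.2), Xbp1 (67.4 ± 3.73), Selenos (46.5 ± 6.16) and Ern1 (32.8 ± 1.14) to Syvn1 (25.3 ± 1.88), Ddit3 (21.1 ± 5.98), Atf6 (16.9 ± 1.20) and Eif2ak3 (11.1 ± 0.468). Syvn1 overlapped with Ddit3, and Ddit3 with Atf6, over the 3 libraries, and other neighbours did not overlap. The sensors were thus the least abundant messages per length together with Ddit3 and Syvn1, and the folding factors the most abundant.

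In the IP the order by level per length changed. Hspa5 (127 ± 16.1 CPM per kb), Syvn1 (124 ± 9.21) and Xbp1 (112 ± 14.6) headed it and overlapped with each other. Ern1 (82.9 ± 6.92) and Atf4 (79.0 ± 15.8) overlapped, as did Atf6 (47.5 ± 4.68) and Sdf2l1 (41.6 ± 12.1). Ddit3 (5.37 ± 1.47), Selenos (4.93 ± 0.580) and Eif2ak3 (4.35 ± 1.15) ended it and overlapped too. The median of tested genes was 2.96 CPM per kb in the IP and 4.05 in total RNA, so all 10 means lay above it on both sides.

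Gene length moved with the log2 fold change, among all tested genes and among the members. In the shortest 20% of tested genes (up to 1705 exonic bases) the median log2 fold change was −0.89, and 12.7% were enriched. In the longest 20% (from 6934 bases) it was 0.48, and 48.9% were enriched. Sdf2l1 (1108 bases) and Selenos (1477) fell in the shortest class, and Ern1 (8173) and Atf6 (9231) in the longest. Eif2ak3, with 6026 bases, was depleted in a length class whose median was 0.14, and Xbp1, with 3248, was enriched in a length class whose median was −0.17. Spearman's rho between exonic length and log2 fold change was 0.38 over 13482 tested coding genes and 0.79 over the 10 members. The part of length in each member's value was not tested beyond the length offset.

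The density of CCCC in coding sequence moved with the log2 fold change among the members, and that of TCCC in coding sequence less so. CCCC occurred 21.2 times per kb in the coding sequence of Syvn1, more than in 99.3% of tested coding genes, against a median of 4.10 over those genes. Atf4 had 11.4, Ern1 9.20, Atf6 6.09, Eif2ak3 5.38, Xbp1 4.98 and Hspa5 4.57 per kb. The lowest were Ddit3 at 1.97, Selenos at 1.75 and Sdf2l1 at 1.5, the 3 lowest log2 fold changes. Spearman's rho of this density with log2 fold change was 0.88 over the 10 members and 0.24 over the 13482 tested coding genes. Of the 18 features compared this was the highest rho among the members, but others came close. For TCCC per kb of 3′ UTR rho was 0.86 over 9 members and 0.26 over 12577 tested coding genes. For runs of 3 or more C per kb of 3′ UTR it was 0.85 and 0.23 over the same genes. The longest run of C gave 0.85 over the 10 members and 0.40 over the 13482 tested coding genes. For TCCC in coding sequence rho was 0.26 over the members and 0.20 over tested coding genes, and for the percentage of C in coding sequence 0.45 and 0.23. These correlations run across genes measured in the same libraries, the members were not drawn at random, and length and base composition vary together, so they are descriptions.

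**Figure D4:**
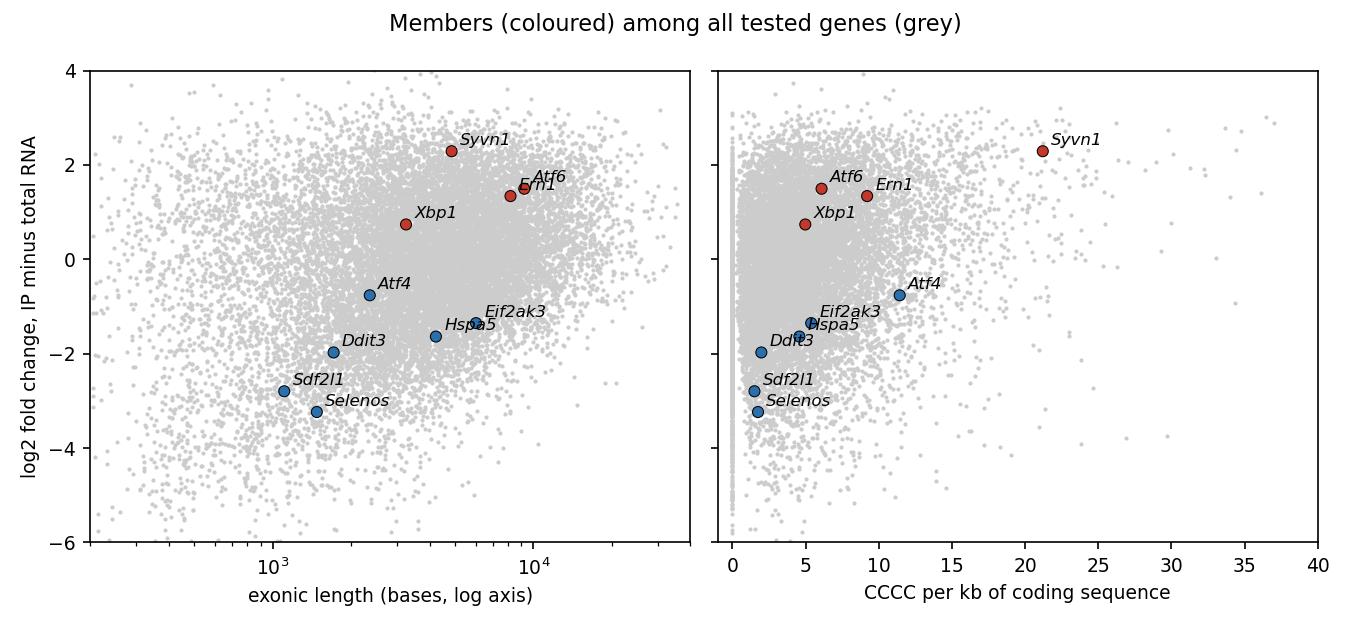
Log2 fold change, IP minus total RNA, against exonic length (left, log axis) and against CCCC per kb of coding sequence (right), with all tested genes in grey and members in red (enriched) or blue (depleted). Syvn1 stands apart at the right of the second panel, and Sdf2l1, Selenos and Ddit3 sit at its left edge. Axes leave out 247 and 106 genes, and 21 and 3447 genes have no value.

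Many UPR targets carry the ER stress response element in their promoter, to which ATF6 and XBP1 are known to bind with NF-Y. The element, searched as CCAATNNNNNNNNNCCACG on both strands from 250 bases before to 50 bases after the start site, occurred in 39 of 32851 RefSeq promoters (0.119%, build GRCm38.p6). A promoter was given for 9 members, and 2 held the element, printed with the fixed letters in capitals.
Hspa5, chr2:34772025-34772043, plus strand: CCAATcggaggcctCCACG
Syvn1, chr19:6046532-6046550, plus strand: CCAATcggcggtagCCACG
These genes moved in opposite directions in the IP, at −1.64 and 2.29. In the pathway lists described next, 8 more genes held it, 3 depleted (Hsp90b1 among them), 2 enriched (Calr among them) and 3 not called. No match in the other promoters says only that these letters are not in that window.

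The wider pathway was followed in 5 lists of genes, whose counts stand beside 28.9% enriched and 33.6% depleted over all tested genes. Relatives and regulators of the sensors had 6 enriched and 9 depleted of 20 tested, with a median log2 fold change of −0.16, and −0.49 under the length offset. The highest and lowest genes named here and for the other lists are those among called genes. Creb3l1, a membrane-bound factor of the ATF6 kind (2.59 ± 0.11), and Eif2ak1, the haem-regulated eIF2α kinase (2.26 ± 0.13), were the highest. Rtcb, the ligase that rejoins Xbp1 mRNA after the IRE1 cut (−2.07 ± 0.17), and Creb3, another membrane-bound factor (−2.35 ± 0.14), were the lowest. Rtcb thus lay opposite to Ern1 and Xbp1, its partners in splicing. Enriched genes of this list numbered 3 without IP library 1, and also 3 under library totals alone.

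Targets of ATF4 and CHOP had 12 enriched and 10 depleted of 26. Their median was 0.30, with −0.13 under library totals alone and 0.24 under the length offset. The death receptor gene Tnfrsf10b (2.85 ± 0.33) and the amino acid transporter gene Slc7a5 (2.48 ± 0.10) were the highest. Asparagine synthetase, Asns (−1.87 ± 0.09), and the stress regulator Nupr1 (−3.19 ± 0.33) were the lowest called genes. Gdf15, which did not pass, had −3.00 ± 1.34 from 0 to 34 reads per library.

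ER chaperones and folding enzymes had 4 enriched and 16 depleted of 22, with a median of −1.38, and −1.14 under the length offset. The large chaperone Hyou1 (1.26 ± 0.08) and the lectin chaperone Calr (1.20 ± 0.09) were the highest. The prolyl isomerase Fkbp2 (−4.21 ± 0.35) and Sdf2, the close relative of Sdf2l1 (−3.17 ± 0.30), were the lowest. Hsp90b1 (−1.47 ± 0.08) lay near Hspa5. The list's median exonic length was 3370 bases, against 3754 over all tested genes.

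Genes of ER-associated degradation had 13 enriched and 14 depleted of 31, with a median of −0.22, and −0.0089 under the length offset. The ubiquitin-conjugating enzyme Ube2j1 (1.87 ± 0.10) and Faf2, which recruits p97 (1.49 ± 0.09), were the highest. Herpud1, a scaffold of the HRD1 complex (−1.81 ± 0.20), and Selenok, a selenoprotein that binds the same complex as Selenos (−3.44 ± 0.21), were the lowest. Under library totals alone 7 were enriched. ER translocation and export had 8 enriched and 17 depleted of 28, with a median of −0.86, and −0.43 under the length offset. The coat protein gene Sec31a (1.78 ± 0.08) and the retrieval receptor gene Kdelr1 (1.60 ± 0.14) were the highest, and the small membrane subunits Ssr4 (−4.20 ± 0.30) and Sec61b (−4.59 ± 0.21) the lowest. Under library totals alone 5 were enriched.

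**Figure D5:**
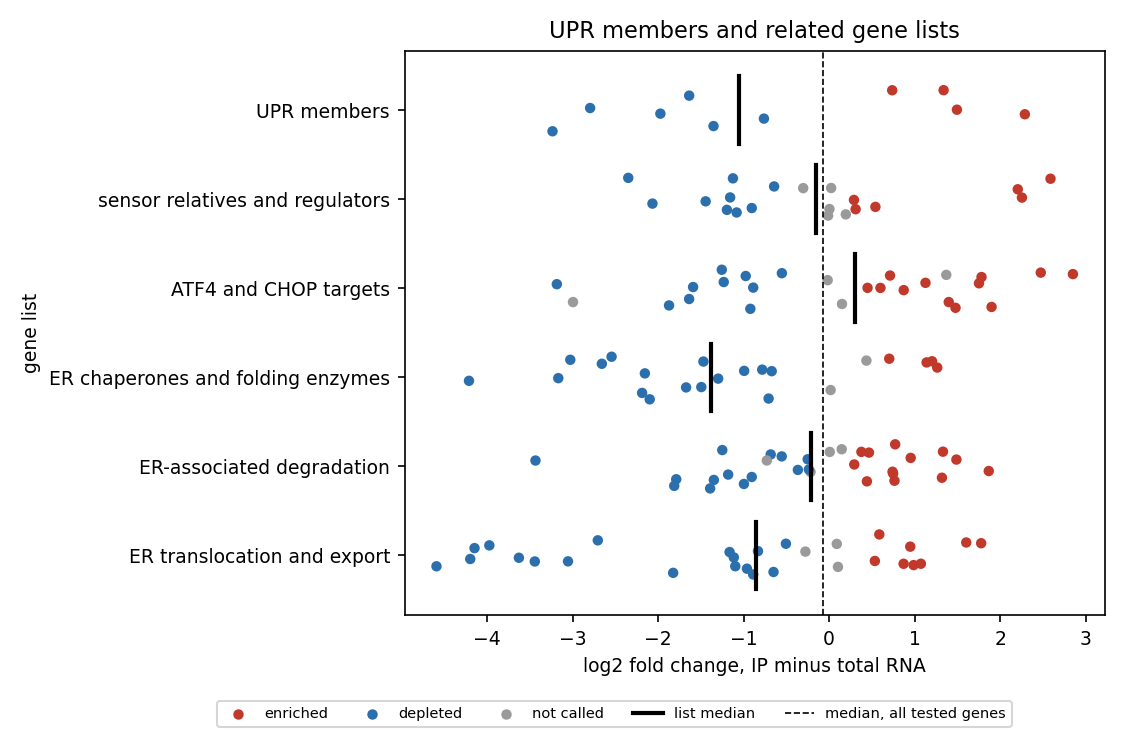
Log2 fold changes of the tested genes in the member list and the 5 related lists, red for enriched, blue for depleted and grey for genes that did not pass, with a black bar at each list's median and a dashed line at the median of all tested genes (−0.07). The medians of the members (−1.06) and of ER chaperones and folding enzymes (−1.38) lie lowest.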

How the data were processed

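RNA sequencing libraries of hnRNPK IP (3) and Total RNA (3) were compared. The deposited files hold raw counts of reads per gene, 1 library each. Per the submitters' processing notes, TopHat2, featureCounts and mm10 were used, and accepted alignments were counted, per the file headers. Versions, annotation, strand and multi-mapping settings are not stated in those sources. Of 53379 genes, 53274 matched GENCODE M21 (GRCm38), which supplied symbols, positions and transcripts. Of 160 listed genes 160 matched, 2 through a RefSeq synonym.

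The test was that of edgeR 4.0.16 in R 4.3.3 (TMM, filterByExpr with minimum count 10 and minimum total 15, quasi-likelihood F test on group, Benjamini-Hochberg adjustment). It was run on simulated data first. CPM include TMM factors. Exonic length is the union of annotated exons. Sequence features come from the transcript with the longest coding sequence, with at least 100 bases of 3′ UTR or 50 of other regions. Alternatives were DESeq2 1.42.0, its size factors, limma-voom 3.58.1, library totals, other filters, halved counts (58.6% to 68.7% of counts from 1 to 20 were even), a lowess offset for length, a replicate block, and leaving out each library. No 2 libraries of a group agreed within sampling noise (chi-square per degree of freedom at least 5.09).

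The members and lists were chosen with earlier results of these data known. Named genes were the members, the partners in the pairs, and from each list at most 2 called genes from the top and 2 from the bottom of its log2 fold changes. Gdf15 and the markers Ins2, Iapp, Gcg, Cpa1 and Prss2 were named after their values were seen.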

Additional observations from a re-analysis of the deposited data

How the results depend on the processing

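Each of the 10 members kept its direction in all 16 alternatives, and 9 kept their call. Atf4 lost it under the length offset, at −0.18 (edgeR, adjusted p = 0.172), and with the replicate block together with that offset, also at −0.18 (edgeR, adjusted p = 0.0852). Its call held in the other 14, and without any single library its log2 fold change was −1.0 to −0.65. Library totals alone left 3 enriched sensor relatives and regulators, 7 enriched degradation genes and 5 enriched translocation genes, and without 1 library the first of these counts was 3 to 6. Sel1l changed sign with library totals alone (−0.059), under the length offset (−0.0089) and with the block and that offset (−0.0089). Atf6b, not called, passed as depleted with library totals alone (−0.41) and as enriched under the length offset (0.46, also with the block), and changed sign with no filter on low counts (−0.0089), without IP library 3 (−0.16) and without total RNA library 1 (−0.016). Without 1 library it ran from −0.16 to 0.13. Of the genes named from the lists, the other 21 (Gdf15 and the marker genes were not followed) kept direction and call throughout. Replicate numbers are shared by the groups' titles, but same-numbered libraries did not deviate together (correlations 0.001, −0.07 and 0.12). With the replicate block 4384 genes were enriched and 5364 depleted, and the members' calls were the same 4 and 6. Depth limits Selenos and Ddit3 most, with 243 to 484 reads in each IP library.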
